A study of Schizosaccharomyces pombe with 4 samples.

Results

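On the arms of the Schizosaccharomyces pombe chromosomes, 186 of 38454 tiles (0.484%) had a lower H3K9me3 signal in clr3-CDx2 cells than in wild-type cells in both states of a tetR-clr4 switch. They were chosen by these measurements: the value of a tile is its log2 ratio of ChIP to input signal less the median tile of its array, and a member had a value lower in clr3-CDx2 by 0.5 or more in ON cells and also by 0.5 or more in OFF cells. The arms leave out the chromosome ends, windows at the centromeres, a window on chromosome II that is near the mating-type region, and the clr3 gene itself, and the array held 41551 tiles in all. Levels of the members, and the differences between genotypes, are therefore given as a description and carry no test.

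H3K9me3 was mapped by ChIP on a tiling array of 60-base probes spaced 300 bp apart, with 1 array in each of 4 groups: clr3-CDx2 ON, wt ON, clr3-CDx2 OFF and wt OFF. All 4 groups carried tetR-clr4, the Tet repressor joined to the H3K9 methyltransferase Clr4, and had grown at 32 °C without thiamine for 20 generations and in 5-fluoroorotic acid at 850 µg/ml for 5 generations. ON cells were fixed at that point in 3% paraformaldehyde, and OFF cells after 14 further generations with thiamine at 5 µg/ml and tetracycline at 2.5 µg/ml. The labels do not say what the clr3-CDx2 allele is or whether a strain is 1 clone, and with 1 array a group no difference has a replicate check. The ON and OFF pairs used separate arrays of the same genotypes, and fragments of about 1000 bp link neighbouring tiles, so tiles are not replicates.

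In fission yeast, methylation of H3K9 by Clr4 marks heterochromatin at centromeres, the mating-type region and subtelomeres, where it recruits chromodomain proteins such as Swi6, Chp1 and Chp2. Clr3 is a histone deacetylase of the SHREC complex, which limits acetylation and transcription in heterochromatin. Actively transcribed genes on the arms usually lack the mark.

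The sequences below show what the main tiles measured, taken from the RefSeq annotation of assembly ASM294v3. Probe sequences were not used here, and array positions differ from those of the assembly. The first set is the last 180 bases of the coding sequence of 3 chaperone genes among the 4 genes with the longest stretches of members, with the stop codon in capitals. The stretches lie on the minus strand at chrI:340107-340286 for mcp60, chrI:3888774-3888953 for hsp90 and chrI:1183312-1183491 for bip1.
mcp60: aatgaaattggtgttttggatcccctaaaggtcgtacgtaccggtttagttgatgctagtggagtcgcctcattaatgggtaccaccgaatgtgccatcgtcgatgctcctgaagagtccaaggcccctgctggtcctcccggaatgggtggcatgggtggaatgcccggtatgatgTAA
hsp90: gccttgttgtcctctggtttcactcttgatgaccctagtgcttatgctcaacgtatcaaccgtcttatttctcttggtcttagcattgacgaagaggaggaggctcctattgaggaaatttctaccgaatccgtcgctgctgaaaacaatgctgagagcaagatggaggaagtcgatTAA
bip1: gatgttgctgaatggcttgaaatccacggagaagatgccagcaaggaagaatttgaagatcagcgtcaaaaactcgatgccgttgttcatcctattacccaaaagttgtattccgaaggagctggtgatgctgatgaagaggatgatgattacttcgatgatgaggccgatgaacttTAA
The coding sequences of these genes had a GC content of 44.7%, 44.4% and 42.2% in that order.

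The next set is 2 snoRNA genes of the plus strand, each shorter than a tile's step, at which the tile with the lowest mean difference of all members and its neighbour lie. The snoZ7 gene is at chrI:526937-527036 and the snoZ5 gene at chrI:527191-527275.
snoZ7: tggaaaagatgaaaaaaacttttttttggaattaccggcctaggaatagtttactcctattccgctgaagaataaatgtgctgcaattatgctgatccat
snoZ5: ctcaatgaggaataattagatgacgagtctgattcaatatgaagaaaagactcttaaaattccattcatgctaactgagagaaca

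The third is the first 240 bases of the chp1 coding sequence on the minus strand, chrI:2213620-2213859, with the start codon in capitals. It is shown because the 2 member tiles in chp1 lie at this end of the gene and differed between genotypes in input signal.
chp1: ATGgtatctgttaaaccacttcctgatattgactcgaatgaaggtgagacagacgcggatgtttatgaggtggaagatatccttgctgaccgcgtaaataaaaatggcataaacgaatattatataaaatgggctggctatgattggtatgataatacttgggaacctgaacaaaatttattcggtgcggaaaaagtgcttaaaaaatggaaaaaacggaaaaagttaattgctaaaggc

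The last set is bases 151 to 270 of the coding sequences of rps2201 and rps2202, 2 genes for the same small-subunit ribosomal protein (uS8), both on the minus strand of chromosome I. Capitals mark the 18 bases of this stretch at which they differ. The stretch was chosen because it held the most differences among the stretches of its length that were compared. Over their whole coding sequences of 393 bases, 363 bases (92.4%) were identical, so signal on a tile of one gene may include DNA of the other.
rps2201: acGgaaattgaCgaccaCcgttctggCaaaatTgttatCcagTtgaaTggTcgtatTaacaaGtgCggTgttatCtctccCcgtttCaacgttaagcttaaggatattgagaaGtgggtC
rps2202: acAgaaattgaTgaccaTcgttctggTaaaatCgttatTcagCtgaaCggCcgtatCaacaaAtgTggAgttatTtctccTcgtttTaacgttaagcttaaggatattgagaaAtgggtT

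Whatever the other state, 1141 arm tiles (2.97%) were lower in clr3-CDx2 by 0.5 or more in ON cells, and 1963 tiles (5.1%) in OFF cells. Tiles that were higher in clr3-CDx2 by as much in both states numbered 48 (0.125%), against the 186 that were lower. That balance depended on the scaling: with deposited ratios left uncentred it was 124 lower and 85 higher, with the trend on GC content removed 142 and 73, and with the arrays brought to equal spread 120 and 71. The spread of arm tiles was wider in clr3-CDx2 than in wt, with an SD over tiles of 0.999 in clr3-CDx2 ON and 0.916 in wt ON, and of 0.936 in clr3-CDx2 OFF and 0.857 in wt OFF. Across arm tiles, the ON and OFF differences had a Pearson correlation of 0.27 and a Spearman correlation of 0.34 (38454 tiles, which share strains, slide and base composition).

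Many members lay close to the threshold. In 75 of them the smaller of the ON and OFF differences was between -0.55 and -0.5, and 128 further arm tiles lay between -0.5 and -0.45. The member nearest the threshold had a smaller difference of -0.50003 and the nearest tile outside it -0.49993. Over the members, the median difference was -0.60 in ON and -0.68 in OFF cells, and the lowest were -1.57 and -1.52.

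**Figure D1:**
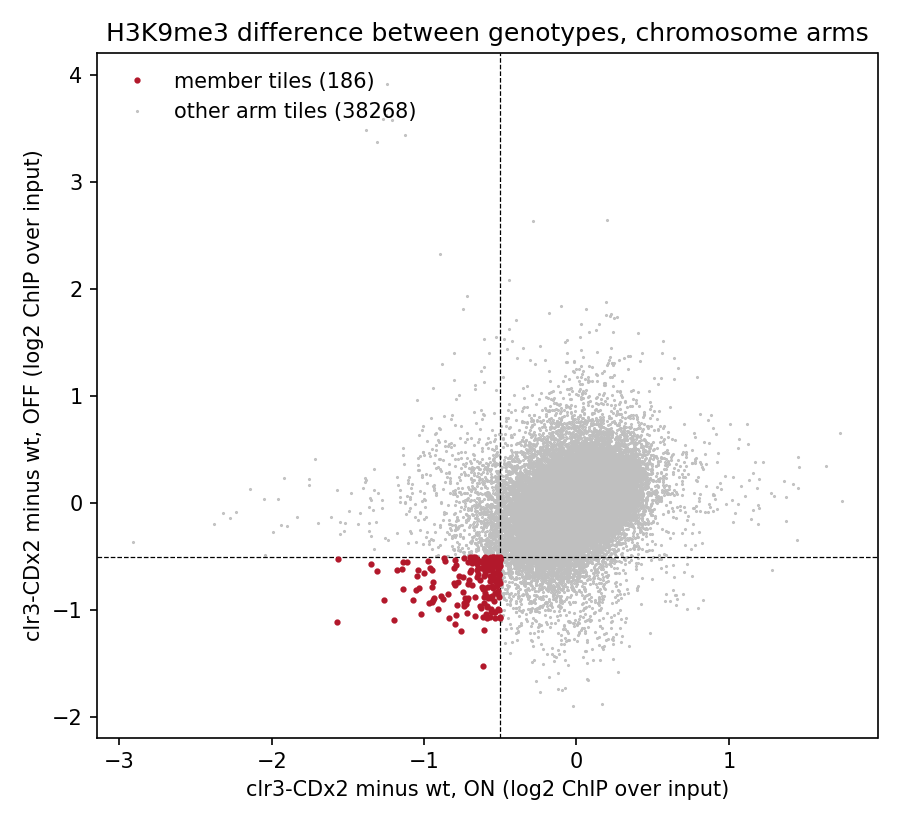
Each point is 1 arm tile, with the clr3-CDx2 minus wt difference in ON cells on the x axis and in OFF cells on the y axis, both in log2 ChIP over input. The 186 members (red) fill the corner below -0.5 on both axes, and many sit near its edges.

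By their medians, members carried little H3K9me3 on any array. Their median level was -1.53 in clr3-CDx2 ON, -0.80 in wt ON, -1.25 in clr3-CDx2 OFF and -0.52 in wt OFF, while the median arm tile read between -0.03 and -0.00 on the 4 arrays. Below 0 on each of the 4 arrays were 133 members (71.5%), against 43.7% of arm tiles. At 1 or more on each array were 2 members (1.08%), against 9.30% of arm tiles. At -1 or less on each array were 15 members (8.06%), against 10.02% of arm tiles. That measure needs the wt arrays to read as low, and the rule places wt above clr3-CDx2 on members. Arm tiles were also ordered by their mean level over the 4 arrays, which includes the values the rule used. The lowest 10% of tiles held 70 members (1.82% of those tiles) and the highest 10% held 6 (0.156%), against 0.484% over all arm tiles. The median difference of all tiles in that lowest group was -0.19 in ON and -0.05 in OFF cells. In the highest group it was 0.06 in ON and 0.13 in OFF cells.

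Over the members, the median difference of the ChIP channel was -0.58 in ON and -0.64 in OFF cells, and that of the input 0.01 and 0.06. Single members departed from this, among them the chp1 tiles described below, and 104 of the 186 also passed the rule on the ChIP channel alone. The level was also higher in OFF than in ON cells, by a median of 0.36 in clr3-CDx2 and 0.47 in wt, against 0.04 and 0.03 over all arm tiles. All members were well above background in both channels on all 4 arrays.

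The members formed 114 stretches when tiles at most 600 bp apart were joined. Of these, 14 were runs of 3 or more members with 71 tiles, 15 were pairs with 30 tiles, and 85 were single tiles. Tiles beside the stretches that were not members also read lower in clr3-CDx2, with a median over stretches of -0.33 in ON and -0.39 in OFF cells at runs, and of -0.25 and -0.40 at single tiles. The flanks were below 0 in both states at 14 of 14 runs, 11 of 15 pairs and 77 of 85 single tiles. No such share was computed over all arm tiles, and of all measured protein-coding genes 29.2% had medians below 0 in both states. Fragments of about 1000 bp link the flanks to the members. At stretches next to the windows left out, such as clr3, flanks include tiles of those windows. Nothing further is read from these counts.

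The 2 longest runs lay at hsp90 and mcp60, and runs of 7 members at bip1 and at gua2 followed. The 9 tiles of the hsp90 run, at array positions 3883800 to 3886200 of chromosome I, had median levels of -2.48 in clr3-CDx2 ON and -1.63 in wt ON, and of -1.44 in clr3-CDx2 OFF and -0.77 in wt OFF. The median difference was -0.70 in ON cells, a signal 1.62-fold lower, and -0.65 in OFF cells, 1.56-fold lower. This gene, whose coding end is printed above, encodes the cytosolic chaperone Hsp90, and 7 of its 8 tiles were members. The run also reached the neighbouring gene rlc1.

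At mcp60, which encodes the mitochondrial chaperonin Hsp60, all 7 tiles of the gene were members. The run of 8 tiles at 340500 to 342600 of chromosome I had median levels of -2.52 in clr3-CDx2 ON and -1.63 in wt ON, and of -1.56 in clr3-CDx2 OFF and -0.69 in wt OFF. Its median difference was -0.92 in ON cells, 1.89-fold lower, and -0.90 in OFF cells, 1.86-fold lower, and single tiles ranged from -1.04 to -0.72 in ON and from -0.99 to -0.69 in OFF cells. The rule fixes that every tile of a run is lower in clr3-CDx2, and fragments link neighbouring tiles. These ranges are therefore given as a description.

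The bip1 gene, for the Hsp70 chaperone of the endoplasmic reticulum, had 7 members among its 10 tiles. The run at 1183800 to 1185600 of chromosome I read -2.27 in clr3-CDx2 ON and -1.59 in wt ON, and -1.68 in clr3-CDx2 OFF and -0.87 in wt OFF. The median difference was -0.71 in ON cells, 1.64-fold lower, and -0.76 in OFF cells, 1.69-fold lower. In hsp90, mcp60 and bip1, clr3-CDx2 ON was the lowest array and wt OFF the highest. The rule places clr3-CDx2 below wt within each state on member tiles, so part of this order was given by it.

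**Figure D2:**
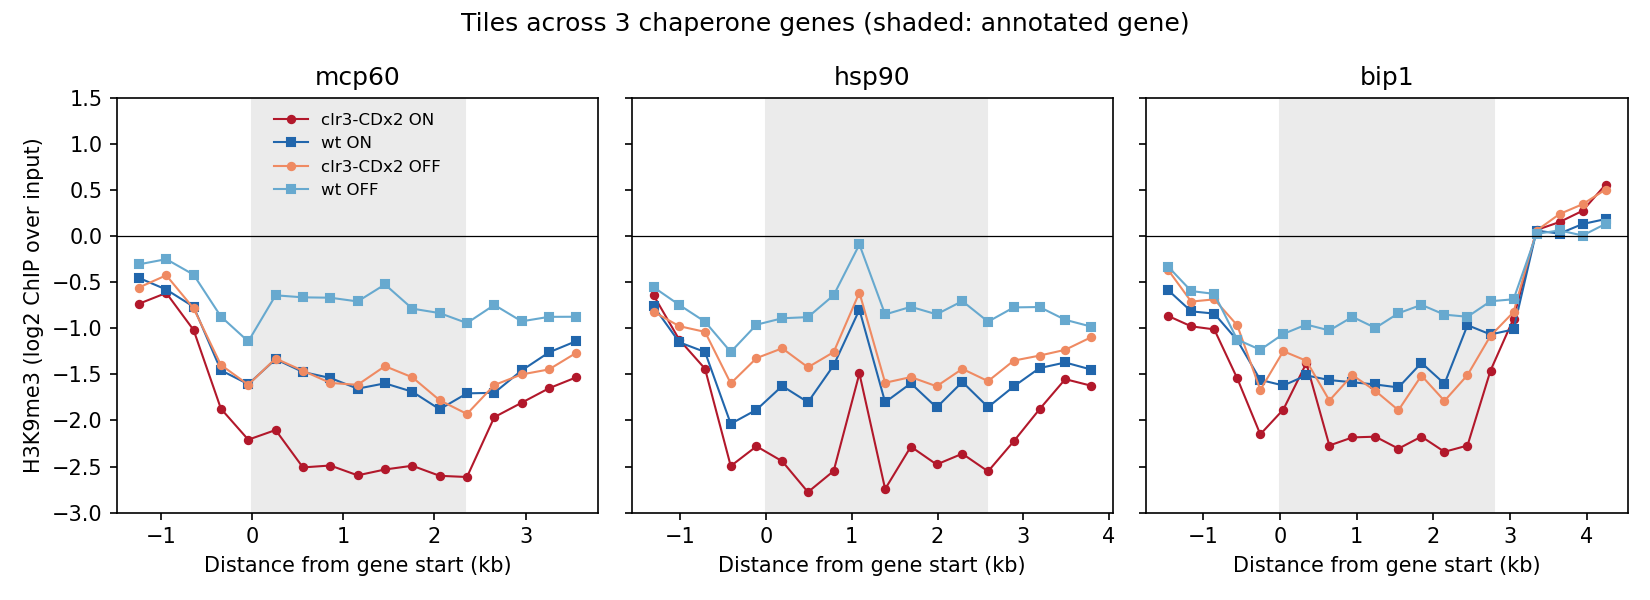
Level of each tile (log2 ChIP over input, y axis) against distance from the gene start (kb, x axis, in the direction of transcription) at mcp60, hsp90 and bip1 on the 4 arrays. In all 3 genes the clr3-CDx2 ON line runs lowest over most of the shaded gene and the wt OFF line highest, and the lines come closer beyond it.

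Several further genes with 3 or more members encode metabolic enzymes. They are named because the rule on members picked them, with no list of such enzymes behind them. The ura1 gene, for the enzyme of the first steps of pyrimidine synthesis, had 9 members among 23 tiles, in runs of 5 and 3 tiles and a single tile. Its 5-tile run at 741000 to 742500 of chromosome I read -2.07 in clr3-CDx2 ON and -1.52 in wt ON, and -1.71 in clr3-CDx2 OFF and -0.75 in wt OFF. The median difference was -0.54 (ON) and -1.0 (OFF), and 22 of the 23 tiles of the gene were below 0 in both states. The 9 members among these tiles are below 0 by the rule.

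At glt1, for glutamate synthase, 7 of 25 tiles were members. Its 4-tile run at 3308400 to 3309900 of chromosome I read -1.71 in clr3-CDx2 ON and -1.14 in wt ON, and -1.25 in clr3-CDx2 OFF and -0.16 in wt OFF, with differences of -0.58 and -1.05. The lys4 gene on chromosome II, for homocitrate synthase of the lysine pathway, had 4 members among 6 tiles, and the run there differed by -0.57 (ON) and -0.93 (OFF). It is the only run of 3 or more members outside chromosome I. The leu2 gene, for isopropylmalate dehydratase of the leucine pathway, had 3 members among 9 tiles, with gene medians that differed by -0.49 and -0.74.

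The aco1 gene encodes aconitase of the citric acid cycle and had 3 members among 12 tiles, with gene medians that differed by -0.44 and -0.51. Which of the ON and OFF differences of a gene was the larger in size depended on the processing. The gene medians of ura1 differed by -0.45 and -0.88, but by -1.61 and -0.67 with arrays scaled to equal pericentromeric signal, so no order is read from them.

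In all, 90 of 4712 measured protein-coding genes (1.91%) held a member and 14 (0.297%) held 3 or more. The median over the tiles of a gene was lower by 0.5 or more in both states in 9 genes (0.191%), namely mcp60, bip1, rps2202, naa10, gua2, tma19, hsp90, rpl2701 and lys4. The remaining genes with 3 or more members are mei2, for an RNA-binding protein that starts meiosis, with 3 of 14 tiles, and chc1, for the clathrin heavy chain, with 3 of 18, besides prm1 and lys1 near the centromere of chromosome I.

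**Figure D3:**
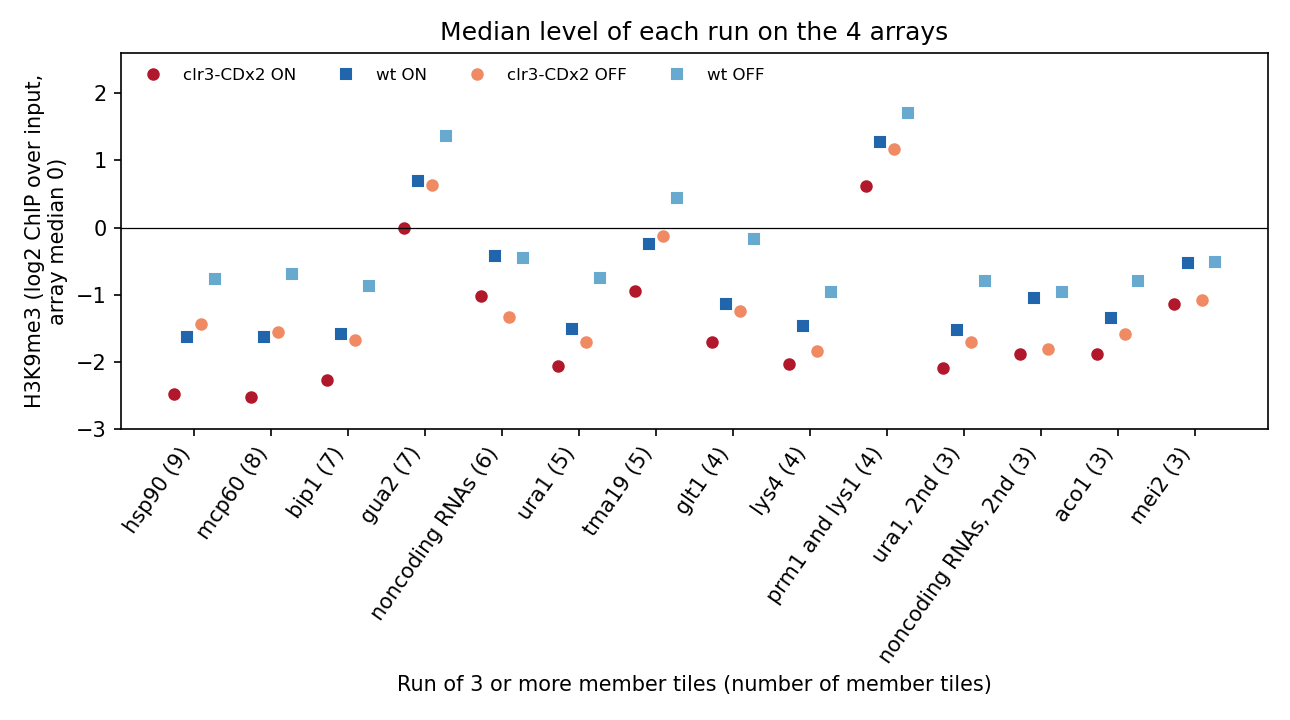
Median level (log2 ChIP over input, y axis) of the 14 runs of 3 or more members on the 4 arrays, with clr3-CDx2 as circles and wt as squares, and the number of member tiles in brackets. The runs at gua2 and at prm1 and lys1 lie above 0 on the wt arrays, with 1.37 and 1.71 in wt OFF, and most others lie below 0 on each array.

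A pair of runs held no protein-coding gene. The run of 6 tiles at 2982900 to 2985000 of chromosome I covers the long noncoding RNAs SPNCRNA.3344, SPNCRNA.3345 and SPNCRNA.3346 and read -1.01 in clr3-CDx2 ON and -0.43 in wt ON, and -1.33 in clr3-CDx2 OFF and -0.45 in wt OFF. Its difference was -0.60 in ON and -0.83 in OFF cells. The run of 3 tiles at 2939400 to 2940000, at SPNCRNA.861, SPNCRNA.862 and SPNCRNA.863, differed by -0.73 and -0.88.

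The flanks of centromere I held members with a median level above 0 in wt. Within 50 kb of the window left out at centromere I, 21 tiles were members, which is 6.31% of the tiles there, against 3 tiles (0.901%) at centromere II and 4 (1.2%) at centromere III. Of the 21, 15 lay left of the window and 6 right of it, all within 20 kb. Their median level was -0.01 in clr3-CDx2 ON and 0.64 in wt ON, and 0.62 in clr3-CDx2 OFF and 1.36 in wt OFF.

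The gua2 gene, for GMP synthase, had 6 members among 7 tiles here. The run of 7 tiles that covers it and reaches fub1, at 3734100 to 3735900, read -0.00 in clr3-CDx2 ON and 0.69 in wt ON, and 0.63 in clr3-CDx2 OFF and 1.37 in wt OFF, with differences of -0.65 and -0.80. Between genotypes the input of this run was 0.13 (ON) and 0.24 (OFF) higher, and the ChIP signal differed by -0.59 in both states.

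Nearer the centromere, the 4 tiles at 3739500 to 3740700 in prm1, for a protein of cell fusion in mating, and lys1, for an enzyme of the lysine pathway, read 0.63 in clr3-CDx2 ON and 1.27 in wt ON, and 1.17 in clr3-CDx2 OFF and 1.71 in wt OFF. On these 4 tiles the ChIP signal differed by -0.49 to -0.34 in ON and by -0.46 to -0.34 in OFF cells. None was thus lower by 0.5 or more in ChIP signal. Their input was higher in clr3-CDx2 by 0.03 to 0.35 in ON and by 0.08 to 0.29 in OFF cells. The annotated prm1 and lys1 genes overlap and share tiles. On the other side, all 3 tiles of tma19, the gene for the translationally controlled tumour protein, were members, and the run of 5 tiles there read -0.94 in clr3-CDx2 ON and -0.25 in wt ON, and -0.13 in clr3-CDx2 OFF and 0.44 in wt OFF.

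In the first 10 kb left of the centromere I window, 10 of 34 tiles were members, and 33 of the 34 were lower in clr3-CDx2 in both states. The 10 members are lower by the rule. From 30 to 40 kb on that side, without a member, 32 of 34 tiles were lower in both states. Over the steps at centromeres II and III, this count ran from 0 of 34 to 32 of 33. The lowest was 20 to 30 kb left of centromere II, and the highest 20 to 30 kb right of it, where 1 tile was a member. Steps with nearly all tiles lower were therefore not particular to centromere I. The median difference over the 34 tiles next to the centromere I window was -0.53 in ON and -0.47 in OFF cells. In the first 10 kb right of the window it was -0.35 and -0.21, with 3 members among its tiles. No tile from 20 to 50 kb on either side was a member.

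**Figure D4:**
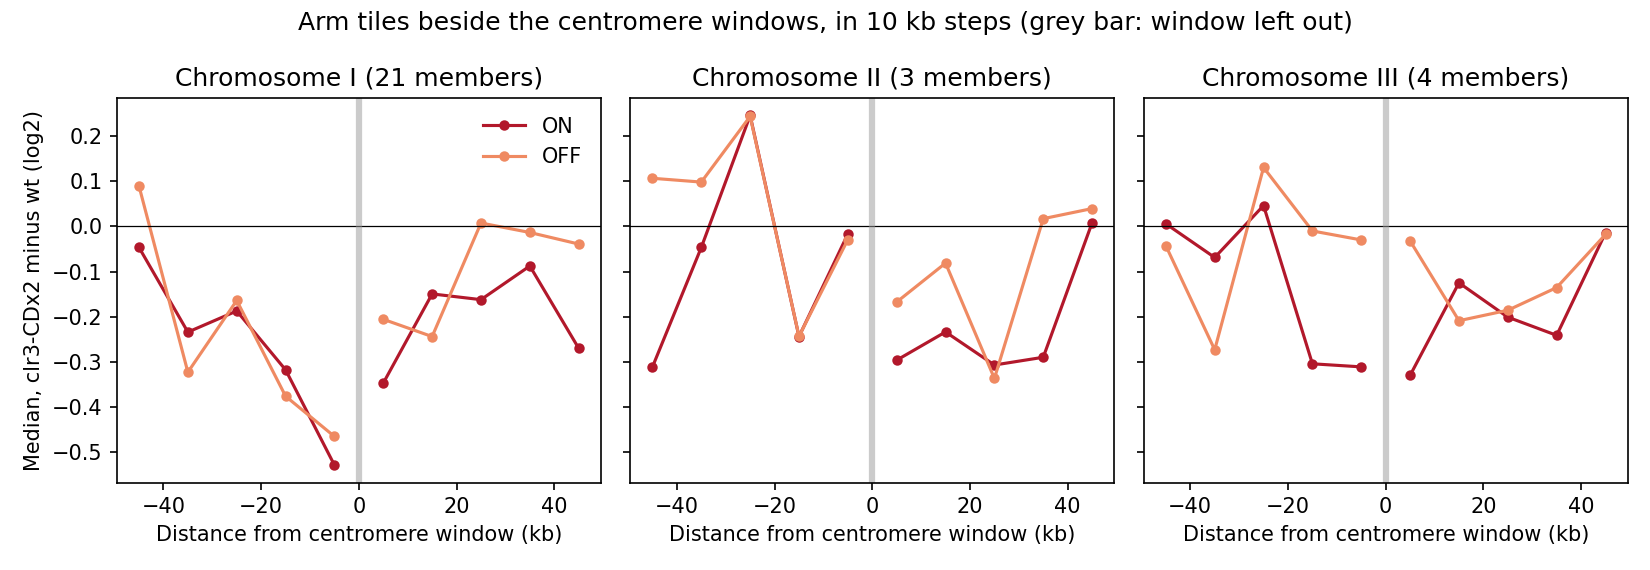
Median clr3-CDx2 minus wt difference (log2, y axis) of arm tiles in 10 kb steps from the centromere windows (kb, x axis), in ON and OFF cells. On the left of centromere I it reaches -0.53 in ON and -0.47 in OFF cells in the step next to the window, and no step at centromeres II or III is as low.

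Chromosome I held 128 of the 186 members (68.8%) but 45.9% of arm tiles. The share of arm tiles that were members was 0.725% for chromosome I, 0.268% for II and 0.30% for III, and it was alike on the left (0.736%) and right (0.702%) arm of chromosome I. Of the 71 tiles in runs, 67 were on chromosome I, and of the 115 other members, 61 were. Counted in each state on its own, with the members included, the shares of lower tiles on chromosomes I, II and III were closer to each other, at 3.04%, 2.84% and 3.02% in ON cells and 5.4%, 4.90% and 4.76% in OFF cells.

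Within genes, members lay toward the 3′ end. Of the 145 members placed in exactly 1 protein-coding gene, 51.7% fell in the last of 3 equal parts of the gene and 17.2% in the first, against 30.4% and 36.0% of the 28251 arm tiles so placed. The median position was 67.8% of the way along the gene for members and 46.9% for arm tiles. In coding sequence lay 65.1% of members and 59.1% of arm tiles. The GC content of the surrounding 1000 bp had a median of 38.6% (members) and 36.1% (all arm tiles).

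The lowest single tiles were of several kinds. Those at snoZ5, in mug165, in eap1 and at the edge of the bip1 run lie in a band of slide rows described below. That band holds 25.4% of arm tiles and 44.1% of members, and the part of slide position in these values was not tested. The lowest by the mean of both differences lies at snoZ5 (array position 528000 of chromosome I), a small nucleolar RNA gene, with -2.31 in clr3-CDx2 ON and -0.74 in wt ON, and -2.12 in clr3-CDx2 OFF and -1.01 in wt OFF. Its differences were -1.57 and -1.11. The tile next to it, at snoZ7, differed by -0.76 and -1.19, and both were marked as non-uniform or outlying by the scanner software on at least 1 array.

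The second lowest is at 1512300 of chromosome I, in mug165 beside rps2202, with -2.06 in clr3-CDx2 ON and -0.86 in wt ON, and -1.87 in clr3-CDx2 OFF and -0.77 in wt OFF. Of the 2 tiles of rps2202, 1 was a member, with differences of -0.97 and -0.93, and so was 1 of the 2 tiles of its near copy rps2201, with -1.14 and -0.55. The member tiles of rps2202 and rps2201 also lie in that band of slide rows. Over their whole coding sequences these 2 genes were 92.4% identical, and the stretch printed above was chosen where they differ most.

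At 856500 of chromosome III, 180 bp from sec59, a dolichol kinase gene, lies the one among the 10 lowest tiles that was enriched on each array. It read 2.44 in clr3-CDx2 ON and 3.70 in wt ON, and 3.17 in clr3-CDx2 OFF and 4.07 in wt OFF. Its differences of -1.26 and -0.90 were made up of a ChIP signal that differed by -0.70 and -0.58 and an input that differed by 0.55 and 0.34. The 4 tiles around it differed by -0.02 to 0.18 in ON cells and by -0.75 to 0.27 in OFF cells.

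Other tiles among the 10 lowest lie in sro1 on chromosome II (-0.61 in ON and -1.52 in OFF cells), in eap1 on chromosome III, for a protein that binds the translation factor eIF4E (-1.56 and -0.52, marked on at least 1 array), and at the edge of the bip1 run (-1.31 and -0.63). In mal1, for a maltase, the tile at 156000 of chromosome II differed by -1.14 and -0.80. There the ChIP signal differed by -1.66 and -1.36 and the input by -0.53 in each state. Only 2 arm tiles had an input lower in clr3-CDx2 by 0.5 or more in both states, and this is one of them.

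A further 2 of the 10 lowest tiles flank the clr3 gene, whose own tiles were left out by the rule. The tile at 255300 of chromosome II read -0.92 in clr3-CDx2 ON and 0.10 in wt ON, and -0.79 in clr3-CDx2 OFF and 0.24 in wt OFF. The tile at 258000, on the other side, read -2.52 in clr3-CDx2 ON and -1.44 in wt ON, and -2.18 in clr3-CDx2 OFF and -1.28 in wt OFF. Their differences were -1.02 and -1.03 at the first and -1.07 and -0.90 at the second, and the input differed by 0.12 in each state at the first and by 0.08 and 0.07 at the second. The strains differ at clr3 by their genotype, so these 2 tiles cannot be told apart from the altered locus.

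The 2 members in chp1, the gene of a chromodomain protein of the RITS complex, stood apart in their input. At the tile 505 bp from the annotated gene start, 2214600 on the array, the input was higher in clr3-CDx2 by 1.55 in ON cells, 2.93-fold, and by 1.60 in OFF cells, 3.04-fold. At the next tile, 805 bp from the gene start, it was higher by 1.05 and 1.33, or 2.07-fold and 2.52-fold. These are the only 2 arm tiles with an input higher in clr3-CDx2 by 1 or more in both states.

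The ChIP signal on these tiles was also higher in clr3-CDx2, by 0.56 and 0.93 at the first and by 0.22 and 0.24 at the second, so the lower ratio came with an input that differed by more. The ratios were -0.72 in clr3-CDx2 ON and 0.28 in wt ON, and -0.55 in clr3-CDx2 OFF and 0.10 in wt OFF, at the first tile. The other 10 tiles of the gene had input differences of -0.32 to 0.04 in ON and of -0.15 to 0.19 in OFF cells, and ratio differences with medians of 0.19 and 0.16. The start codon lies 486 bp from the annotated gene start, so both tiles lie near the beginning of the coding sequence printed above, the end that encodes the chromodomain of Chp1. The labels do not say whether the clr3-CDx2 strain carries further copies of this stretch, and this was not tested.

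**Figure D5:**
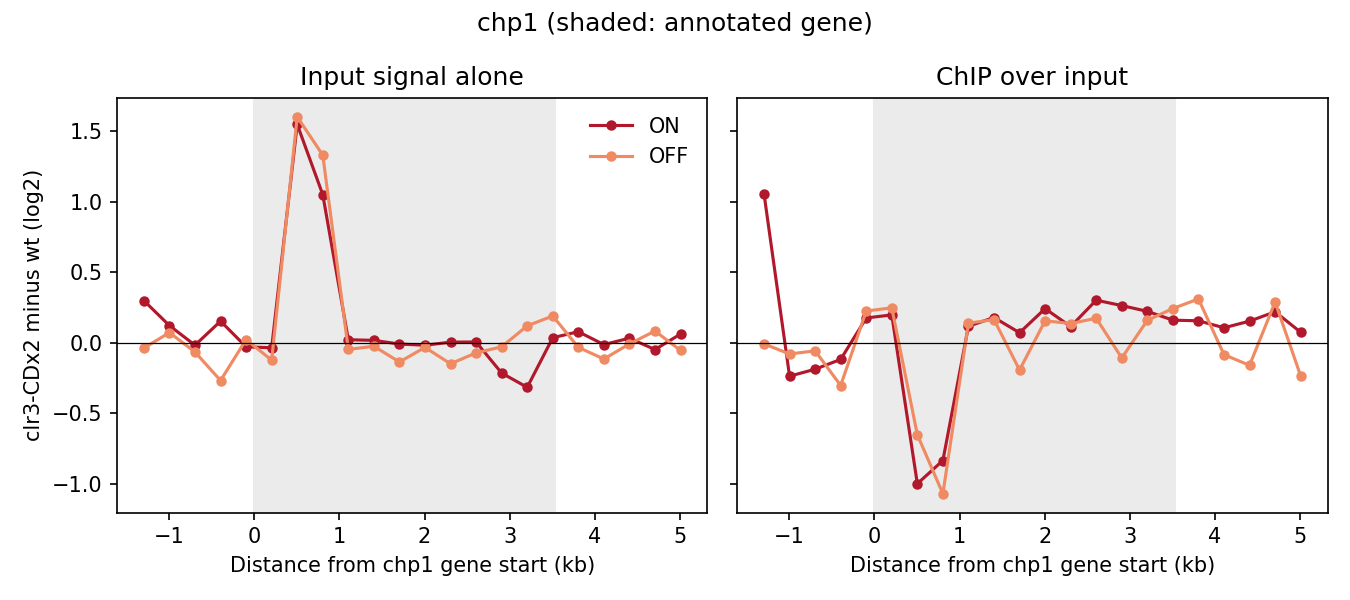
The clr3-CDx2 minus wt difference (log2, y axis) in input signal and in ChIP over input, against distance from the chp1 gene start (kb, x axis). In ON and OFF cells alike, the input stands 1.05 to 1.60 higher on 2 adjacent tiles and the ratio is lower on the same tiles, while the other tiles of the gene stay near 0 in input.

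Of the lists of genes examined, ribosomal protein genes named rpl or rps held 5 members among 277 tiles (1.81%, against 0.484% of arm tiles). They lay in rps2201, rps2202, rps1502, rps2402 and rps1802. All 5 of these members of the list lay in the band of slide rows described below, which holds 25.4% of arm tiles. The part of slide position in them was not tested. The gene rpp0, for a protein of the large ribosomal subunit, is not in that list by its name and held 1 member. The medians of the 107 measured ribosomal protein genes were -0.18 in ON and -0.59 in OFF cells, against 0.02 and 0.02 over all measured genes, and 101 of the 107 were below 0 in both states, against 29.2% of all genes. Many are pairs of near copies, so their signals may be shared. Chaperone and heat shock genes, a list drawn up after the values were seen, held 25 members among 114 tiles (21.9%, against 0.484% of arm tiles). The members lay in 7 of the 17 genes, while 1.91% of all measured protein-coding genes held a member. The medians of the list were -0.38 and -0.35. Choosing the list with these values known raises such shares and lowers the medians, so no enrichment is read from them. Of the members in this list, 7 each lay in hsp90, mcp60 and bip1, and the others lay singly in ssa2, ssc1, pss1 and hsp10.

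The 10 genes of glycolysis and actin held no member and had medians of -0.24 in ON and 0.01 in OFF cells, and their levels were among the lowest, at -2.13 in clr3-CDx2 ON and -1.85 in wt ON, and -1.46 in clr3-CDx2 OFF and -1.51 in wt OFF. The 9 histone genes (-0.22 and -0.07) and the 6 measured genes of the respiratory chain (0.02 and -0.03) held none either.

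Among 16 measured genes of the SHREC, CLRC and RNAi machinery, chp1 alone held members, and the medians of the list were 0.10 in ON and 0.06 in OFF cells. No member lay in the 4 measured genes of other histone deacetylases, the 8 of meiotic islands, the 5 of iron and amino acid transport, the 25 measured tRNA genes or the 12 Tf2 retrotransposons. The lists without a member had 24 to 73 tiles each, in which the arm share of 0.484% amounts to less than 1 tile, so nothing is read from their counts of 0. The Tf2 elements, which carried the mark at 2.24 in clr3-CDx2 ON and 2.18 in wt ON, and at 2.42 in clr3-CDx2 OFF and 2.27 in wt OFF, differed by 0.05 and 0.07.

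The place of the spot on the slide and marks of the scanner software moved with membership. A band of slide rows that holds 25.4% of arm tiles held 82 members (44.1%), with 45 of the 85 single members and 20 of the 71 members in runs. With the rows split into 4 equal bands, these held 16, 67, 59 and 44 members in order. The tiles of a run were scattered over the slide. Marked on at least 1 array were 15 members (8.06%), against 1.84% of arm tiles, and 6 members lay on repeated sequence. The part of slide position in the single members was not tested beyond the count without that band, which left 104 members and 10 of the runs.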

How the data were processed

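Per the file headers, version 12.0.3.1 of Agilent Feature Extraction quantified the 4 arrays, each with 2 colours. The deposited scanner files hold spot and background intensity, dye-normalised processed signals and a log10 ratio, and the authors' deposited matrix holds the log2 ratio of ChIP (Cy5) to input (Cy3), found here to match the ratio of the processed signals on every tile to within rounding. The array's genome build is not given in the sources used here.

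The log2 ratio of processed signals was centred on the median of each array, with 1417 control spots left out and no loess or quantile step. Gene values are medians over at least 2 tiles, and ChIP and input differences were each centred on their median. Tiles were placed on RefSeq genes by shifting each of 6 arms by the offset at which input signal best followed GC content (r from 0.24 to 0.28, in steps of 10 bp). Median signal over background was 417 to 490 in input and 137 to 166 in ChIP, no tile was saturated, and the number of arrays limits precision. Joining of tiles, thresholds and offsets were tested on simulated data.

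The members, gene lists and naming rule were chosen with earlier results of these data known. Runs of 3 or more members, genes in them or with 3 or more members, the 10 lowest tiles and all lists are named, and the pairs and slide band described were chosen after their values were seen. Alternatives used pandas 2.3.3, statsmodels 0.14.6 and limma 3.58.1. The normexp alternative used spot medians in place of the planned spot means.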

Additional observations from a re-analysis of the deposited data

How the results depend on the processing

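With 1 array a group, no array could be left out. There are no replicate numbers to pair, and the pairs of genotypes within ON and within OFF gave the 2 differences that the rule used. The count of 186 members and the 14 runs stayed within 1.5 times under removal of marked or repeated tiles, centring on the mode, the ChIP channel alone, a running median of 3 tiles and removal of the GC trend, with 142 to 186 members and 10 to 17 runs. The members were not the same tiles throughout: 104 of the 186 were members on the ChIP channel alone and 108 with the running median. Uncentred deposited ratios gave 8 runs. Normexp background correction gave 961 members and 114 runs, 168 of the 186 among them, with median differences of -0.86 in ON and -1.04 in OFF cells over the 186. Scaling to equal pericentromeric signal, for which the arrays' medians there were 1.13 in clr3-CDx2 ON and 1.70 in wt ON, and 2.47 in clr3-CDx2 OFF and 2.43 in wt OFF, gave 624 members and 76 runs, 96 of the 186 among them, with medians of -1.61 and -0.53. A threshold of -0.4 gave 522 members and 46 runs, -0.6 gave 70 and 4, and -1 gave 3 and 0. Chosen after the data were seen, equal spread of the arrays gave 120 members and 7 runs, 90 of the 186 among them, and leaving out the slide band gave 104 members. The cause of these shifts was not tested. For the 14 genes with 3 or more members, all 308 gene differences under the 11 alternatives other than the thresholds were below 0. Of these, 78 moved by over 0.1. The rule chose these genes for low tiles on the same 4 arrays, so the sign of the differences gives no independent support. The prm1 and lys1 genes also share tiles.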
